A study of Mus musculus with 16 samples.

Results

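Cytochrome P450 genes encode heme enzymes of the endoplasmic reticulum and mitochondria that insert oxygen into drugs, pollutants, steroids, fatty acids and vitamins. They were taken as every gene whose probe set carried a single symbol made of Cyp and a number, with Cyp51, a gene of cholesterol synthesis, left out, and 62 of the 12393 genes measured met that rule. RNA from the left lung of 16 mice had been hybridised to 16 Affymetrix arrays, 1 mouse per array. Mice were genetically deficient in adiponectin, a hormone of fat cells (KO), or wildtype (WT), all labelled as of C57BL/6 background and averaging 14 weeks of age. They breathed ozone at 0.3 ppm, an oxidant air pollutant, or room air for 72 h. The groups were KO ozone, KO air, WT ozone and WT air, with 4 mice each, 2 males (M1 and M2) and 2 females (F1 and F2). Each run of 4 values below follows M1, M2, F1, F2, and a shared number does not pair mice across groups. The sources used here do not say which allele the deficient mice carry or whether controls were littermates.

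In lung, P450 enzymes are concentrated in club cells, the secretory cells of the small airways, with others in alveolar type 2 cells and endothelium. They oxidise inhaled chemicals, in some cases into more reactive products, and forms of the CYP1 family are induced when the aryl hydrocarbon receptor binds polycyclic aromatic hydrocarbons. Other members work on signalling molecules, among them retinoic acid, vitamin D, oxysterols and fatty acids.

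The stretch of 250 bases before the gene start is shown for 4 members as examples. These are Cyp1a1 and Cyp1b1, the CYP1 forms called after ozone, Cyp2b10 and Cyp2f2. Cyp2b10 was called in both genotypes and carries the core motif bound by the aryl hydrocarbon receptor 2 times. Cyp2f2 is a club cell form whose window does not hold that motif. Sequences are RefSeq's for GRCm38.p6, written 5′ to 3′ on the strand of the gene. Capitals mark GCGTG or, for a match on the other strand, its reverse complement.
Cyp1a1 (chr9:57697363-57697612, plus strand): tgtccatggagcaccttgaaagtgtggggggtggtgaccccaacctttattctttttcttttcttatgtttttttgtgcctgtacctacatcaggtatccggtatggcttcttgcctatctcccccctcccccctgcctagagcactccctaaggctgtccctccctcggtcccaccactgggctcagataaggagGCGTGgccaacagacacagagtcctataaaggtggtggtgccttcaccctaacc
Cyp1b1 (chr17:79715062-79715311, minus strand): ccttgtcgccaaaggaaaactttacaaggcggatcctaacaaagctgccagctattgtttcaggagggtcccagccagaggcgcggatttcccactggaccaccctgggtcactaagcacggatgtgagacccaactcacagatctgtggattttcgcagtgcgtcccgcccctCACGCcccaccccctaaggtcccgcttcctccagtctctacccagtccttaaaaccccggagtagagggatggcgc
Cyp2b10 (chr7:25897408-25897657, plus strand): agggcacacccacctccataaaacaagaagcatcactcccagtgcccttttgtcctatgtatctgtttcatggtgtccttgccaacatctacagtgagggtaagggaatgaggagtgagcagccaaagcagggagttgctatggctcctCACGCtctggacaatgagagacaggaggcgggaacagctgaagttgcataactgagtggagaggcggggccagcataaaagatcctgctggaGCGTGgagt
Cyp2f2 (chr7:27119705-27119954, plus strand): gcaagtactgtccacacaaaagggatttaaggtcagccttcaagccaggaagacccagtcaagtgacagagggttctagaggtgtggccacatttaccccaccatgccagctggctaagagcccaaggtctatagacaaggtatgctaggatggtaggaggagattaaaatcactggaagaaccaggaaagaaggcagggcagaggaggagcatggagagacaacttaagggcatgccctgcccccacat
In Cyp1a1 the match lay 54 to 50 bases before the start, in Cyp1b1 76 to 72 bases before it on the other strand, and in Cyp2b10 9 to 5 bases before it and, on the other strand, 101 to 97 bases before it. GCGTG on either strand was found in 11 of the 52 P450 windows (21.2%), which belong to 45 of the 62 genes, against 28.2% of all 32851 windows of the same length. TGACTCA, the AP-1 motif, was in 3.85% of P450 windows against 4.46% of all, and TGACNNNGC, the core of the antioxidant response element, in 5.77% against 10.2%. The last 2 motifs can overlap, since TGACTCA followed by GC matches both. A match describes these letters and is not a site.

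Levels are log2 of the deposited intensity, and differences are log2 fold changes ± SE from a limma fit of all 16 arrays. Calls needed a Benjamini-Hochberg adjusted p below 0.05 across all 12393 genes. Array medians lay at intensities of 146 to 154, and precision is limited by having 4 arrays a group. Adipoq, the gene of adiponectin, averaged 6.68 ± 0.90 in KO mice and 8.48 ± 1.35 in WT mice (SD, n = 8 each, two-sided exact permutation p = 0.00420). It averaged 6.22 ± 0.14 in KO ozone and 8.05 ± 0.49 in WT ozone mice, with no overlap (SD, n = 4 each, exact permutation p = 0.0286, the smallest that 4 against 4 can give). In air it averaged 7.13 ± 1.16 in KO and 8.91 ± 1.87 in WT mice (exact permutation p = 0.143), and the groups overlapped. The Adipoq level taken alone goes against the label of 1 array, labelled KO air F2, which read 8.82, above 6 of the 8 WT arrays, while the other 7 KO arrays read below every WT array. Without it, 8 of the 10 well-expressed P450 genes described below were called lower after ozone in KO mice and 6 in WT mice. The array labelled KO air F2 and WT air F1 stood apart by a summed fat cell marker intensity of 10655 and 11506, against at most 2419 on any other array. At these sums Adipoq, itself among the markers, read 8.82 on the array labelled KO air F2 and 11.52 on WT air F1. What fat in the sample adds to the Adipoq reading was not tested. KO air M2 stood apart by summed skeletal muscle and squamous epithelium markers of 29321 and 17661. Results were also computed without these 3 air arrays, an alternative chosen after seeing the data. Scgb1a1, the secretoglobin that defines club cells, lay between 14.57 and 14.72 on the 16 arrays, and Sftpc, the surfactant protein that defines alveolar type 2 cells, between 14.51 and 14.62. Both ranked 1 or 2 in brightness on every array, at the top of the range, where a change in RNA may not show, so they mark the tissue but not its cell content. The free description of WT ozone F1 speaks of room air, while its title and exposure label name ozone, and it was kept with ozone.

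Only 10 of the 62 P450 genes reached the median level of all genes, 7.71, and they are called well-expressed. The other 52, called dim, were split by the same level on their mean over all 16 arrays, without regard to the groups. Brightness differs between probe sets for technical reasons, so this split does not rank RNA amounts. The lowest of the well-expressed genes was Cyp39a1 at 8.20, and the highest of the dim ones was Cyp4f18 at 7.46. Probe sets of the Y-linked genes Eif2s3y, Kdm5d and Uty, which females lack, read 3.82 to 4.46 on female arrays. Of the dim P450 genes, 11 averaged no more than 4.46, Cyp3a44 being lowest at 3.99, and 41 averaged more. By their place in RefSeq's gene table, 44 members lie in 8 neighbourhoods with gaps of at most 1 Mb. None of 10 neighbouring Cyp2c genes and none of 4 Cyp4f, 4 Cyp2j or 4 Cyp3a neighbours was well-expressed. A neighbourhood of 8 genes held 3 well-expressed forms, Cyp2s1, Cyp2b10 and Cyp2f2, beside the dim Cyp2a12, Cyp2b9, Cyp2b13, Cyp2b19 and Cyp2g1. Cyp2d22 was the single well-expressed form among 7 neighbouring Cyp2d genes.

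After ozone, all 10 well-expressed P450 genes were lower than in air in KO mice and 6 of them were called lower in WT mice, while no well-expressed P450 gene was called higher in either genotype. Their median difference was -0.53 in KO and -0.48 in WT mice, against 0.00 and -0.01 over all well-expressed genes. Of all well-expressed genes, 21.1% were called higher and 20.6% lower in KO mice, and 20.6% higher and 23.5% lower in WT mice. Ozone arrays lay entirely below air arrays for 7 of the 10 in each genotype, where this held for 18.3% of well-expressed genes in KO and 19.6% in WT mice. Among all 62 members, 1 rose and 10 fell in KO mice, where 15.8% of all genes were called higher and 14.6% lower. In WT mice 6 rose and 8 fell, where 19.6% of all genes were called higher and 17.1% lower. Counts given below for families and marker lists are to be read beside these shares. Calls were shared by 7 genes, 63.6% of those in KO and 50% of those in WT mice, with 6 lower and 1 higher in both. Such shares were not computed over all genes, so these do not show whether P450 genes share calls more often than other genes. Cyp51, which the rule left out, had a mean level of 7.94 and rose by 0.65 ± 0.128 in KO and 0.64 ± 0.128 in WT mice (limma adjusted p = 0.00139 and 0.00133). In whole-lung RNA, fewer cells of a type and less RNA per cell cannot be told apart.

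Leaving out each array in turn left 7 to 10 of the 10 well-expressed genes called lower in KO mice and 4 to 7 in WT mice, and all 10 fitted differences stayed below 0 in KO mice in each such fit. With only the arrays of the groups compared in the fit, 8 were called lower in KO and 8 in WT mice, so the counts of 10 and 6 do not show that the genotypes differ. In WT mice all 10 fitted differences were below 0 in the main fit. There 9 were below 0 without WT air F2, with arrays set to a common median, and in males alone. Fits of 1 sex, which have fewer arrays, called 5 lower in KO and 5 in WT females, and 5 in KO and 2 in WT males. Without the 3 air arrays that stood apart, 8 were called lower in KO and 7 in WT mice. Calls in KO mice that held under every alternative tried were those of Cyp1a1, Cyp27a1 and Cyp2d22 among the falls, and of Cyp7b1, which rose. In WT mice those of Cyp2d22 and Cyp39a1 did.

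**Figure D1:**
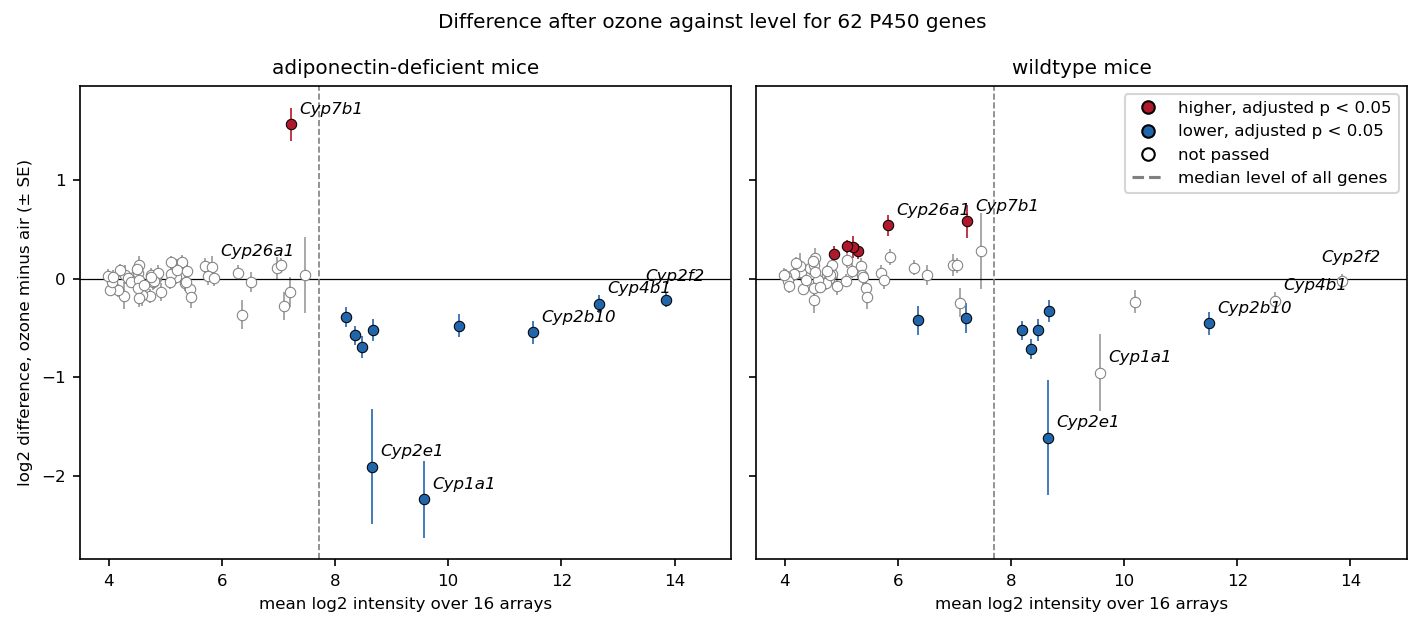
Log2 difference, ozone minus air, with its SE (vertical axis) against the mean log2 intensity over 16 arrays (horizontal axis) for the 62 P450 genes, in adiponectin-deficient mice (left) and wildtype mice (right). Filled points were called by limma, red higher and blue lower. All 10 genes right of the dashed line at the median level of all genes, 7.71, are called lower in deficient mice and 6 of them in wildtype mice, while the one gene called higher in deficient mice, Cyp7b1, lies left of it.

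The CYP1 family was measured by all 3 of its genes, and 1 fell in each genotype, Cyp1a1 in KO and Cyp1b1 in WT mice. Cyp1a1, which oxidises polycyclic aromatic hydrocarbons and is the standard readout of the aryl hydrocarbon receptor, had the largest fall of all members in KO mice. Its level was 8.62, 8.11, 6.97 and 9.29 on KO ozone arrays, against 10.38, 10.04, 10.61 and 10.90 on KO air arrays. In WT mice it was 9.35, 8.35, 9.90 and 9.66 after ozone, against 10.47, 9.67, 10.41 and 10.52 in air. All KO ozone arrays lay below all KO air arrays, while in WT mice the groups overlapped through air M2 at 9.67. It fell by 2.23 ± 0.391, or 4.71-fold, in KO mice (adjusted p = 0.000569, lower in 4 of 4 arrays). In WT mice the difference was -0.95 ± 0.391 and missed the threshold (adjusted p = 0.0685). It passed with only the WT arrays in the fit (adjusted p = 0.0128), and without KO ozone F1 (adjusted p = 0.00440) or KO ozone F2 (0.0497), arrays that enter it only through the shared spread, within a range of 0.00440 to 0.442 over its alternatives. The difference between the genotypes' responses was -1.28 ± 0.552, with an unadjusted p of 0.0351 and an adjusted p of 0.983.

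Cyp1b1, a CYP1 form of mesenchymal cells that hydroxylates estrogens, was dim and read 6.91, 7.13, 7.12 and 7.25 after ozone in KO mice, against 7.11, 7.21, 7.14 and 7.50 in air. In WT mice it read 6.66, 7.19, 7.00 and 7.25 after ozone, against 6.88, 7.18, 7.89 and 7.75 in air. The groups overlapped in both genotypes. In WT mice it fell by 0.40 ± 0.149 (adjusted p = 0.0476), a call kept without any one of 5 arrays (WT air M1, WT ozone M2, KO air M2, KO air F1 and KO ozone M2) and lost without any one of the other 11, with adjusted p between 0.0530 and 0.150. It was also lost with only the WT arrays in the fit (0.0733), with arrays set to a common median (0.0684), with array weights (0.0641), with the mean of all probe sets (0.0954), without a sex term (0.113) and without the 3 air arrays that stood apart (0.154), within a range of 0.00962 to 0.697 over all its alternatives. Its difference in KO mice was -0.14 ± 0.149 (adjusted p = 0.539). The difference in WT mice was -0.69 in females alone and -0.11 in males alone, and the other 2 Cyp1b1 probe sets gave -0.30 and 0.09. Cyp1a2, the liver form of the family, averaged 5.70 and was not called, with differences of 0.13 and 0.05. Of 12 markers of endothelium, where lung Cyp1a1 is known to be induced, 4 were called higher and 3 lower in KO mice, and 4 lower in WT mice. Their summed intensity was 18195 to 20888 on KO ozone and 17446 to 19639 on KO air arrays, and 17578 to 20101 on WT ozone and 17842 to 20287 on WT air arrays. Their part in the result was not tested.

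**Figure D2:**
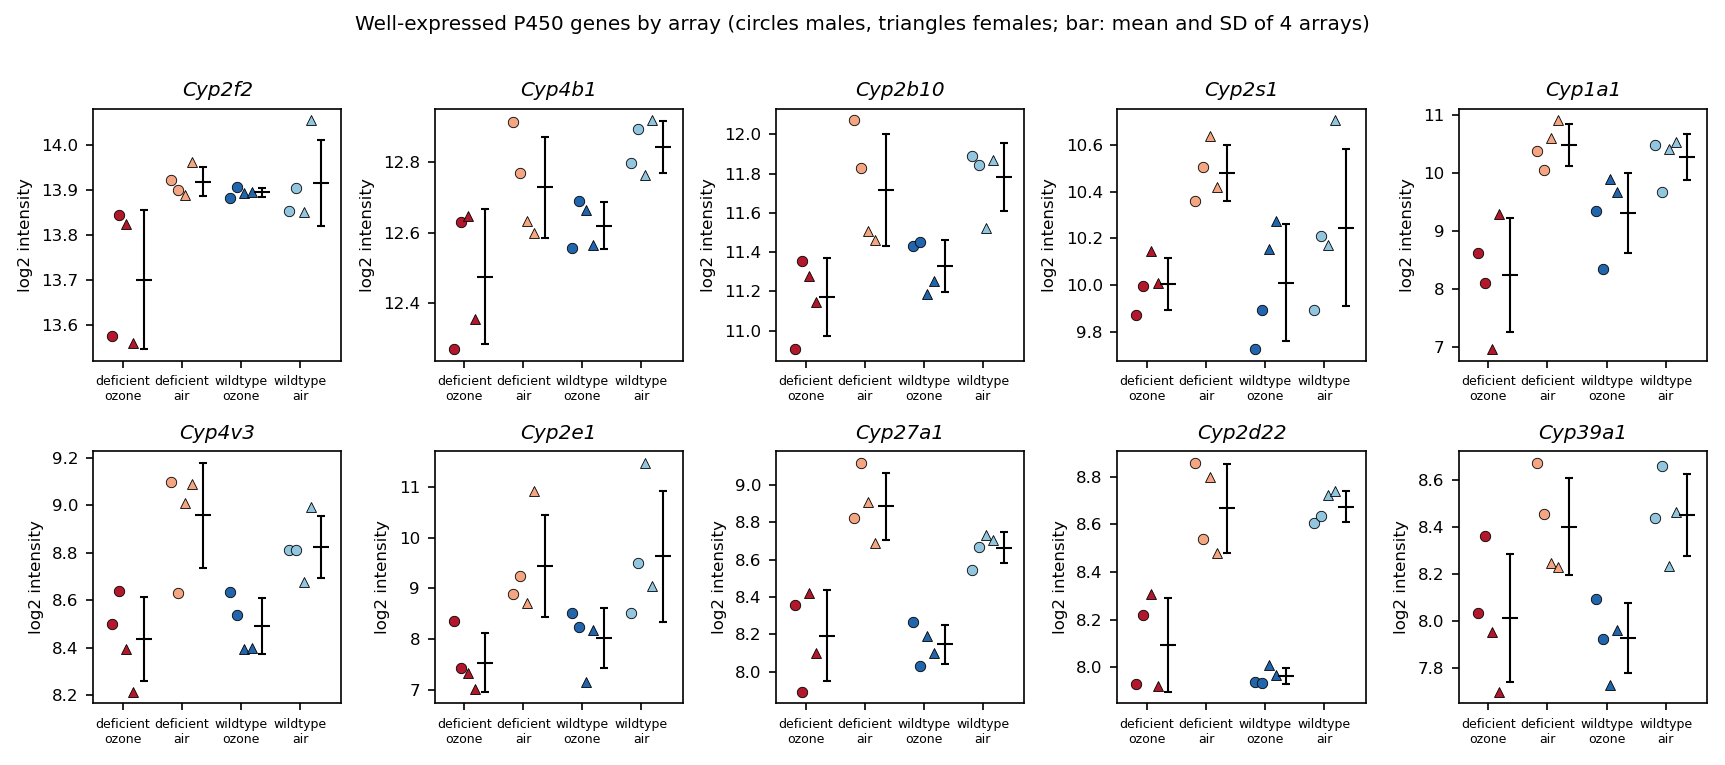
Log2 intensity (vertical axes, scaled for each gene) of the 10 well-expressed P450 genes on each array, by group (horizontal axes), with circles for males, triangles for females and bars for the mean and SD of 4 arrays. Cyp1a1 and Cyp2e1 span several log2 units, Cyp2f2 less than 1, and all WT ozone arrays of Cyp2d22, at 7.93 to 8.01, sit below all WT air arrays, at 8.61 to 8.74.

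The xenobiotic forms of CYP2 (2A to 2G, 2S and 2T) were measured by 26 genes. In KO mice 5 fell and none rose, and in WT mice 3 fell and 2 rose. Cyp2f2, the club cell enzyme that turns naphthalene into its toxic epoxide, was the brightest member, and its fitted differences were the smallest among the well-expressed ones. Its mean of 13.86 was not far below the arrays' top of 14.57 to 14.72, so a change in RNA may not show in full. Cyp2f2 read 13.58, 13.85, 13.82 and 13.56 on KO ozone arrays, against 13.92, 13.90, 13.89 and 13.96 on KO air arrays. WT ozone arrays read 13.88, 13.91, 13.89 and 13.90, against 13.85, 13.91, 13.85 and 14.05 on WT air arrays. KO ozone arrays lay below all KO air arrays, and the WT groups overlapped. It fell by 0.22 ± 0.0712 in KO mice (adjusted p = 0.0310), while in WT mice the difference was -0.02 ± 0.0712 (adjusted p = 0.839). The difference between the responses was -0.20 ± 0.101 (adjusted p = 0.983). The KO call was lost without KO air M1 (adjusted p = 0.0698), M2 (0.0511) or F2 (0.0726), without KO ozone M1 (0.100) or F2 (0.116), and without the 3 air arrays that stood apart (0.136), and with only the KO arrays in the fit (0.0833), with 0.0113 to 0.297 spanned by its alternatives.

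Cyp2b10, the phenobarbital-inducible form of liver that lung also expresses, fell in both genotypes. It read 10.91, 11.36, 11.28 and 11.15 on KO ozone arrays, against 12.07, 11.83, 11.51 and 11.46 on KO air arrays. In WT mice the values were 11.43, 11.45, 11.19 and 11.25 after ozone, against 11.89, 11.84, 11.52 and 11.87 in air. The ozone and air arrays did not overlap in either genotype. It fell by 0.55 ± 0.117 in KO (adjusted p = 0.00243) and by 0.45 ± 0.117 in WT mice (adjusted p = 0.00743), and the 3 Cyp2b10 probe sets ranged from -0.57 to -0.55 in KO and from -0.49 to -0.39 in WT mice. The tested probe set is of a kind that can read near-identical relatives. Its neighbours Cyp2b9, Cyp2b13 and Cyp2b19 were dim and not called.

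Cyp2s1, a form of epithelia outside the liver, read 9.87, 10.00, 10.14 and 10.01 on KO ozone arrays, against 10.36, 10.51, 10.64 and 10.42 on KO air arrays, with no overlap. The WT values were 9.73, 9.89, 10.15 and 10.27 after ozone, against 9.89, 10.21, 10.17 and 10.70 in air, and these overlapped. It fell by 0.48 ± 0.115 in KO mice (adjusted p = 0.00549) and was not called in WT mice, at -0.24 ± 0.115 (adjusted p = 0.122). That WT difference was -0.12 without WT air F2, the highest of its group, and passed without the 3 air arrays that stood apart (-0.32, adjusted p = 0.0396), within a range of 0.0297 to 0.399. Cyp2d22, the mouse relative of the human drug-metabolising CYP2D6, had the smallest adjusted p of the falls in WT mice. Its level was 7.93, 8.22, 8.31 and 7.92 on KO ozone arrays, against 8.86, 8.54, 8.80 and 8.48 on KO air arrays. WT ozone arrays read 7.94, 7.93, 8.01 and 7.97, against 8.61, 8.63, 8.72 and 8.74 on WT air arrays. Ozone and air were apart in both genotypes. Cyp2d22 fell by 0.57 ± 0.0976 in KO (adjusted p = 0.000460) and by 0.71 ± 0.0976 in WT mice (adjusted p = 8.30e-05), and the second probe set gave -0.39 and -0.45.

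Cyp2e1, which oxidises ethanol and small solvents and is abundant in liver and fat, varied most between mice. It read 8.35, 7.44, 7.33 and 7.01 on KO ozone arrays, against 8.89, 9.25, 8.70 and 10.92 on KO air arrays. WT ozone arrays read 8.50, 8.23, 7.15 and 8.17, against 8.51, 9.49, 11.47 and 9.04 on WT air arrays. The highest values were on the 2 arrays with fat cell markers, those labelled KO air F2 and WT air F1, and ozone arrays lay below air arrays in both genotypes, in WT mice with 8.50 as the highest ozone and 8.51 as the lowest air value. Cyp2e1 fell by 1.91 ± 0.582 in KO mice (adjusted p = 0.0215). The call was lost with an intensity trend in the variance prior (adjusted p = 0.0512) and without the array labelled KO air F2 (-1.40, adjusted p = 0.0793), KO ozone F1 (-1.81, 0.0541) or KO ozone F2 (-1.69, 0.0720), in a range of 0.00526 to 0.0882. In WT mice it fell by 1.61 ± 0.582 (adjusted p = 0.0416). The WT call was lost without WT air M2 or F1, without WT ozone M2, F1 or F2, and without KO ozone M2 or F1 (adjusted p = 0.0501 to 0.137), with a difference of -0.97 without WT air F1, and with the intensity trend (0.0816). Leaving out the 3 air arrays that stood apart gave -1.26 in KO (adjusted p = 0.0161) and -0.92 in WT mice (adjusted p = 0.0316, in a range of 0.0225 to 0.245).

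Of 9 fat cell markers, 1 was called lower in KO mice, Thrsp at -2.38 ± 0.715, and none in WT mice (limma). Their summed intensity was 1053 to 1348 on KO ozone and 1414 to 10655 on KO air arrays, and 1405 to 2408 on WT ozone and 1185 to 11506 on WT air arrays. Cyp2e1 missed the threshold in KO mice without the array labelled KO air F2 and in WT mice without WT air F1, in each case with a smaller difference. The part of fat in the difference was not tested. Liver markers were dim throughout, with a summed intensity of 479 to 705 over 11 genes.

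Cyp2c70 and Cyp2c54, Cyp2c forms known from liver, rose in WT mice by 0.32 ± 0.112 and 0.25 ± 0.0798 (adjusted p = 0.0374 and 0.0254), and differed by 0.08 and 0.06 in KO mice. Cyp2c70 averaged 5.21 and Cyp2c54 4.88 over all arrays, where absent Y-linked transcripts read up to 4.46. WT ozone arrays did not overlap WT air arrays for either gene. The Cyp2c70 call was lost without the 3 air arrays that stood apart (adjusted p = 0.0774), without WT air M1, WT air F1, WT air F2, WT ozone M2 or WT ozone F2 (0.0718 to 0.126), and that of Cyp2c54 without WT air M1 (0.0757) or WT ozone M2 (0.0923). Another quantile normalization ended both calls (0.148 for Cyp2c70 and 0.105 for Cyp2c54). Over their alternatives the adjusted p spanned 0.0171 to 0.429 for Cyp2c70 and 0.0175 to 0.244 for Cyp2c54. The remaining dim forms of the 26 were not called in either genotype.

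Of the 4 CYP2J forms, which make epoxides of arachidonic acid, none was called, and of 5 CYP3A forms, the main drug-metabolising family of liver and gut, 1 was. Cyp3a13 read 6.10, 6.50, 6.29 and 5.98 on KO ozone arrays, against 6.80, 6.88, 6.24 and 6.42 on KO air arrays. The WT values were 6.03, 6.45, 5.95 and 6.00 after ozone, against 6.49, 6.62, 6.17 and 6.84 in air. Groups overlapped in both genotypes. In WT mice it fell by 0.42 ± 0.145 (adjusted p = 0.0336) and missed the threshold in KO mice at -0.37 ± 0.145 (adjusted p = 0.0704). The WT call was lost without WT air M2, WT air F2 or any one of WT ozone M1, F1 and F2 (adjusted p = 0.0569 to 0.113), and without a sex term (0.0639), within a range of 0.0178 to 0.212, and the difference was -0.27 without WT air F2. In KO mice it passed without WT air F2 (adjusted p = 0.0248) or KO air F1 (0.0465), in a range of 0.0248 to 0.530. The other 4 CYP3A forms averaged 3.99 to 4.53.

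The CYP4 forms hydroxylate fatty acids at their far end, and of 10 measured, 2 fell in KO mice and 1 in WT mice. Cyp4b1, which also activates the plant toxin ipomeanol and is typical of lung, read 12.27, 12.63, 12.65 and 12.35 on KO ozone arrays, against 12.91, 12.77, 12.63 and 12.60 on KO air arrays. WT ozone arrays read 12.56, 12.69, 12.67 and 12.57, against 12.80, 12.89, 12.76 and 12.92 on WT air arrays. Groups overlapped in KO mice, where the difference of -0.25 ± 0.0907 was called lower (adjusted p = 0.0462), and did not in WT mice, where -0.22 ± 0.0907 was not (adjusted p = 0.0663). The KO call was kept without the array labelled KO air F2, KO ozone M2, KO ozone F1 or WT air F2 and lost without any one of the other 12 arrays (adjusted p = 0.0508 to 0.157), within a range of 0.0158 to 0.550. The WT difference passed without KO ozone M1 (adjusted p = 0.0380) or KO ozone F1 (0.0492), in a range of 0.0332 to 0.243. With only the arrays of the groups compared, the fall was called in WT mice (adjusted p = 0.0332) and not in KO mice (0.115), and with an intensity trend in the variance prior it was called in both (0.0490 in WT mice). The difference between the responses was -0.03 ± 0.128 (adjusted p = 0.997).

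Cyp4v3, the mouse form of the human fatty acid hydroxylase CYP4V2, fell in both genotypes. It read 8.50, 8.64, 8.39 and 8.21 on KO ozone arrays, against 9.10, 8.63, 9.01 and 9.09 on KO air arrays. The WT values were 8.64, 8.54, 8.40 and 8.40 after ozone, against 8.81, 8.81, 8.67 and 8.99 in air. KO air M2, at 8.63, was the one air array that reached the ozone range of its genotype, and WT groups were apart. It fell by 0.52 ± 0.111 in KO (adjusted p = 0.00245) and by 0.33 ± 0.111 in WT mice (adjusted p = 0.0308), and the second probe set gave -0.67 and -0.47. In WT mice the call was lost without WT air M2 or F2 or without any one of WT ozone M2, F1 and F2 (adjusted p = 0.0506 to 0.100), within a range of 0.00559 to 0.290. Cyp4f18, the neutrophil form that inactivates a leukotriene, read 9.19 on WT ozone M2 and between 6.74 and 7.77 on the other 15 arrays. That array also carried S100a8, a neutrophil gene, at 13.68, against 9.44 to 9.60 on the other WT ozone arrays. The part of neutrophils in this value was not tested. Cyp4f18 was not called, with differences of 0.04 and 0.28, and the other dim CYP4 forms were not called either on their tested probe sets. The second, dimmer Cyp4f16 probe set was higher after ozone by 0.25 in both genotypes. Its adjusted p was 0.0173 in KO and 0.0162 in WT mice (limma over all probe sets), while the tested one gave 0.13 and 0.14.

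Among 6 genes of cholesterol and bile acid metabolism, 1 rose and 2 fell in KO mice, and 2 rose and 2 fell in WT mice. Cyp27a1, the mitochondrial sterol hydroxylase that starts the acidic pathway of bile acid synthesis and is strong in macrophages, read 8.36, 7.89, 8.42 and 8.10 on KO ozone arrays, against 8.83, 9.12, 8.91 and 8.69 on KO air arrays. WT values were 8.27, 8.03, 8.19 and 8.10 after ozone, against 8.55, 8.67, 8.73 and 8.71 in air. Ozone and air arrays were apart in both genotypes. Cyp27a1 fell by 0.69 ± 0.112 in KO (adjusted p = 0.000316) and by 0.52 ± 0.112 in WT mice (adjusted p = 0.00249). Cyp39a1, an oxysterol hydroxylase, read 8.03, 8.36, 7.95 and 7.70 on KO ozone arrays, against 8.67, 8.45, 8.25 and 8.23 on KO air arrays. WT ozone arrays read 8.09, 7.92, 7.73 and 7.96, against 8.44, 8.66, 8.23 and 8.46 on WT air arrays. KO groups overlapped through ozone M2 at 8.36, while WT groups were apart. It fell by 0.39 ± 0.0975 in KO (adjusted p = 0.00686) and by 0.52 ± 0.0975 in WT mice (adjusted p = 0.000832).

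Cyp7b1, the hydroxylase that clears oxysterols made from cholesterol, rose in both genotypes, and its rise in KO mice was the largest among the members. It read 8.28, 8.36, 7.76 and 8.55 on KO ozone arrays, against 6.40, 6.45, 7.04 and 6.78 on KO air arrays. WT ozone arrays read 7.38, 7.45, 7.38 and 6.96, against 6.67, 6.56, 6.83 and 6.79 on WT air arrays. Every ozone array lay above every air array of its genotype, and every KO ozone array above every WT ozone array. The rise was 1.57 ± 0.167, or 2.96-fold, in KO mice (adjusted p = 9.65e-06) and 0.58 ± 0.167 in WT mice (adjusted p = 0.0140). In WT mice the difference was 0.36 in females alone (adjusted p = 0.329) and 0.80 in males alone, in a range of 0.00134 to 0.329. The second Cyp7b1 probe set gave 1.20 and 0.72. By the genotypes' difference after ozone, Cyp7b1 was 0.94 ± 0.167 higher in KO than in WT mice, with an unadjusted p of 4.86e-05 and an adjusted p of 0.0674. That difference passed without KO ozone F1, the lowest of its group (1.13, adjusted p = 0.00400), and with the mean of both probe sets (0.80, adjusted p = 0.0487), and its alternatives spanned 0.00400 to 0.392. The difference between the responses to ozone was 0.99 ± 0.237, with an unadjusted p of 0.000839 and an adjusted p of 0.726.

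Of 9 macrophage markers, 1 was lower in KO mice (Siglecf, the eosinophil and alveolar macrophage receptor, at -0.78 ± 0.161) and 1 was higher and 1 lower in WT mice (Msr1 at 0.28 and Siglecf at -1.03). Their summed intensity was 20641 to 26265 on KO ozone and 22581.1 to 24618.5 on KO air arrays, and 19704 to 27048 on WT ozone and 21184 to 27985 on WT air arrays. Their part in the differences of Cyp27a1 and Cyp7b1 was not tested.

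The other called members were dim and rose in WT mice. Cyp26a1, which breaks down retinoic acid, read 5.79, 5.78, 5.71 and 5.94 on KO ozone arrays, against 5.67, 5.60, 5.81 and 5.66 on KO air arrays. In WT mice it read 6.32, 6.37, 6.06 and 5.93 after ozone, against 5.44, 5.46, 5.85 and 5.77 in air. KO groups overlapped, and WT groups were apart, most of all in males. It rose by 0.54 ± 0.109 in WT mice (adjusted p = 0.00151) and differed by 0.12 ± 0.109 in KO mice (adjusted p = 0.438). The responses of the genotypes differed by -0.42 ± 0.154, KO minus WT, with an unadjusted p of 0.0164 and an adjusted p of 0.983. In WT mice the difference was 0.19 in females alone (adjusted p = 0.299) and 0.89 in males alone (0.00117), in a range of 0.000550 to 0.299, and the test of ozone by sex over both genotypes gave an unadjusted p of 0.00131 and an adjusted p of 0.271. Cyp24a1, which inactivates vitamin D, rose by 0.28 ± 0.0778 in WT mice (adjusted p = 0.0126, lost with another quantile normalization at 0.0519 and in females alone at 0.200, within a range of 0.00489 to 0.200) and differed by 0.16 in KO mice (adjusted p = 0.129, and 0.0366 without KO air M1, within a range of 0.0366 to 0.936). Cyp7a1, the rate-limiting enzyme of bile acid synthesis in liver, rose by 0.33 ± 0.0654 in WT mice (adjusted p = 0.00135, and 0.0732 in females alone, within a range of 0.00109 to 0.0732) at a mean level of 5.10, while its second probe set gave 0.0042. For both genes every WT ozone array lay above every WT air array on the tested probe set. The second Cyp24a1 probe set gave 0.11 in WT and 0.03 in KO mice (limma over all probe sets, adjusted p = 0.277 and 0.791). Cyp27b1, which activates vitamin D, and the 4 genes of steroid hormone synthesis (Cyp11a1, Cyp11b2, Cyp17a1 and Cyp21a1) were not called, nor were Cyp46a1 and Cyp8b1. The second, dimmer Cyp21a1 probe set was higher after ozone in WT mice by 0.23 and differed by 0.13 in KO mice (limma over all probe sets, adjusted p = 0.0257 and 0.198).

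**Figure D3:**
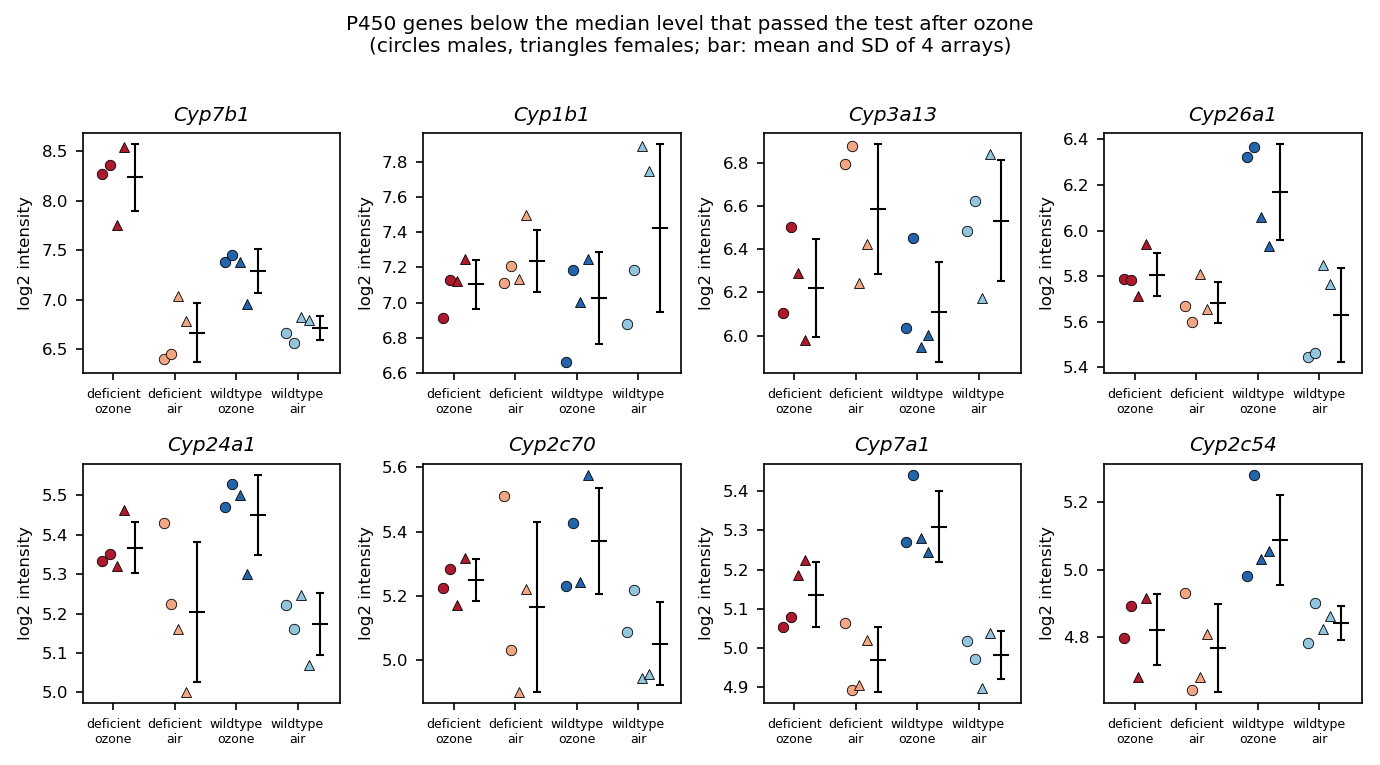
Log2 intensity (vertical axes, scaled for each gene) of the 8 dim P450 genes called after ozone in at least one genotype, on each array, by group (horizontal axes), with circles for males, triangles for females and bars for the mean and SD of 4 arrays. Cyp7b1 shows every KO ozone array, from 7.76 to 8.55, above all others, while the panels of Cyp7a1, Cyp2c70 and Cyp2c54 span less than 1 log2 unit.

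Over the 52 dim genes the median difference was 0.01 in KO and 0.05 in WT mice, against 0.02 and 0.06 over all dim genes. One was called higher and none lower in KO mice, where 10.4% of dim genes were called higher and 8.52% lower, and 6 were called higher and 2 lower in WT mice, where the shares were 18.6% and 10.6%. Each of these is a smaller share than among all dim genes, a comparison that does not match levels. When the dimmest 25% of all genes were left out, only 10 of the 52 remained. Of these 10, 1 was called higher and none lower in KO mice, and 2 higher and 2 lower in WT mice. Shares of all dim genes were not computed in that fit. The smaller shares therefore do not show that dim P450 genes differ from other genes of their level. Ozone arrays lay entirely above air arrays for 1 of the 52 in KO and 6 in WT mice, where this held for 10.3% and 16.8% of dim genes. The 6 rises in WT mice became 3 with another quantile normalization and 10 with arrays set to a common median, with 3 and 1 called lower.

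Neither room air nor ozone gave a P450 gene that differed between the genotypes at the adjusted threshold, nor did the interaction. By limma 0 of 62 were called in air (1 at an unadjusted p under 0.05), 0 after ozone (8) and 0 for the interaction (3), where 0.00807%, 0.0161% and 0.00% of all genes were called. The unadjusted counts are to be read beside those of all 12393 genes, which were 732 in air, 1392 after ozone and 605 for the interaction. After ozone 49 of 62 fitted differences were below 0 in KO relative to WT mice, with a median of -0.08, against 6550 of 12393 genes and a median of -0.01. Of the 52 dim members 42 were below 0, with a median of -0.08, against 4131 of 6196 dim genes and a median of -0.05, so dim genes as a whole leaned the same way. Of the 10 well-expressed members 7 were below 0, with a median of -0.10, against 2419 of 6197 and a median of 0.03. Arrays of the genotypes did not overlap after ozone for Cyp7b1, higher in KO mice, and for 3 genes lower in KO mice, Cyp2f2, Cyp7a1 and Cyp2c54, where 2.16% of all genes were apart upward and 3.32% downward. These comparisons use the same ozone arrays as the comparisons with air.

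Between the sexes, 1 P450 gene was called, where 5.66% of all genes were, 2.55% lower in females. Cyp39a1 differed by -0.26 ± 0.0690, females minus males (limma adjusted p = 0.0388, n = 8 each). That call was lost without any one of 10 arrays (adjusted p = 0.0506 to 0.0788) and kept without any one of WT air M1, WT air F2, KO air M2, WT ozone M2, WT ozone F2 and KO ozone M1. The 10 arrays were KO ozone M2, F1 and F2, KO air M1, F1 and F2, WT ozone M1 and F1, and WT air M2 and F1. Over all alternatives the adjusted p spanned 0.0261 to 0.191, and it was lost without the 3 air arrays that stood apart (0.109), a fit that called Cyp2s1 higher in females instead (0.35, adjusted p = 0.0310). With a single array left out, others passed between the sexes: Cyp3a13 without WT air F2, Cyp2s1 without the array labelled KO air F2, Cyp1b1 without WT ozone M2, Cyp2b10 without KO ozone M1 and Cyp1a1 without KO ozone F1 (adjusted p = 0.0345 to 0.0487), against 0.0784 to 0.437 with all arrays. For a difference in the ozone response between the sexes, 1072 of all 12393 genes had an unadjusted p under 0.05, and 0.00807% were called. Of the 62 P450 genes 7 had such an unadjusted p, and none was called. Without KO air M1 one was, Cyp4f13, at -0.50 (adjusted p = 0.0405), against -0.37 with all arrays (adjusted p = 0.517) and a range of 0.0405 to 0.787 over its alternatives.

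Of 10 club cell markers, Hp, haptoglobin, rose and Aldh1a1, a retinal dehydrogenase, fell in both genotypes, and the other 8 were not called. Scgb1a1, the defining secretoglobin, was at the top of the arrays' range, so its differences of -0.01 and 0.01 do not measure club cell content. The summed intensity of the 10 was 74978 to 81559 on KO ozone and 76570 to 85340 on KO air arrays, and 73264 to 87384 on WT ozone and 70004 to 88824 on WT air arrays. These sums overlapped between ozone and air in both genotypes. Of 9 alveolar type 2 markers, Sftpc among them, none fell, and Sftpb and Sftpd rose in KO mice and Abca3 and Sftpd in WT mice. Their summed intensity was 93272 to 109034 on KO ozone and 89929 to 97828 on KO air arrays, and 104226 to 108822 on WT ozone and 94327 to 106690 on WT air arrays. The sums of both lists are of linear intensities and weigh most on the brightest markers, Scgb1a1 and Sftpc among them. They therefore do not measure cell content either. Squamous epithelium markers summed to 863 to 1228 on KO ozone and 406 to 17661 on KO air arrays, and to 1006 to 1199 on WT ozone and 423 to 489 on WT air arrays. Of these 9 markers, Sprr1a, a cornified envelope gene, was the one called, higher by 2.96 ± 0.646 in KO and 3.76 ± 0.646 in WT mice. Their part in the P450 differences was not tested.

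Partners of P450 enzymes and the receptors that control their genes were followed as further groups. Their counts are to be read beside the shares of all genes called after ozone. These were 15.8% higher and 14.6% lower in KO mice, and 19.6% higher and 17.1% lower in WT mice. Calls at about these shares do not set a group apart from other genes. The alternatives followed for P450 genes were not followed for these groups, so how well calls near the threshold hold was not tested. Among 7 electron donors and membrane partners, 2 fell in both genotypes and none rose. Pgrmc1, a heme protein of the membrane that binds P450 enzymes, fell by 0.64 ± 0.0799 in KO and 0.69 ± 0.0799 in WT mice (adjusted p = 3.92e-05 and 2.32e-05). Cyb5a, cytochrome b5, which passes electrons to P450 enzymes, fell by 0.25 ± 0.0645 and 0.17 ± 0.0645 (adjusted p = 0.00893 and 0.0467). The P450 fold is shared by Ptgis, prostacyclin synthase, which fell in WT mice by 0.32 ± 0.0970 (adjusted p = 0.0197) and differed by -0.23 in KO mice, and by Tbxas1, thromboxane synthase, which was not called.

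Of 7 genes of the aryl hydrocarbon receptor pathway, 3 fell in KO mice and 1 in WT mice. Ahr, the receptor itself, fell by 0.58 ± 0.144 in KO and 0.77 ± 0.144 in WT mice (adjusted p = 0.00649 and 0.000856). Its targets Tiparp, a feedback repressor, and Nqo1, a quinone reductase, fell by 0.29 ± 0.0926 and 0.29 ± 0.0861 in KO mice (adjusted p = 0.0276 and 0.0190). In WT mice they differed by -0.14 and 0.11 and were not called. Arnt, the partner of the receptor, Ahrr, Aldh3a1 and Nfe2l2 were not called in either genotype.

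Among 14 nuclear receptors of P450 genes, 1 rose and 2 fell in KO mice, and 2 rose and 3 fell in WT mice. Ppara, the receptor for fatty acids, fell by 0.52 ± 0.0926 in KO and 0.30 ± 0.0926 in WT mice, and Rarb, a retinoic acid receptor, by 0.68 ± 0.165 and 0.72 ± 0.165. Vdr, the vitamin D receptor, fell in WT mice by 0.36 ± 0.113. Rara rose in KO mice by 0.42 ± 0.138, and Hnf4a and Nr5a1 rose in WT mice by 0.19 ± 0.0649 and 0.20 ± 0.0606. Nr1i2 and Nr1i3, the drug-sensing receptors of liver that control Cyp3a and Cyp2b genes, averaged 5.08 and 5.16 and were not called. Of 7 genes of heme synthesis, which supplies the P450 cofactor, Fech, which inserts iron, fell by 0.36 ± 0.0785 in KO and 0.32 ± 0.0785 in WT mice, while Alad rose in both, by 0.24 ± 0.0763 and 0.31 ± 0.0763. Urod rose in KO mice by 0.29 ± 0.0783 and Uros in WT mice by 0.21 ± 0.0673, and Alas1, the first enzyme of the pathway, was not called.

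**Figure D4:**
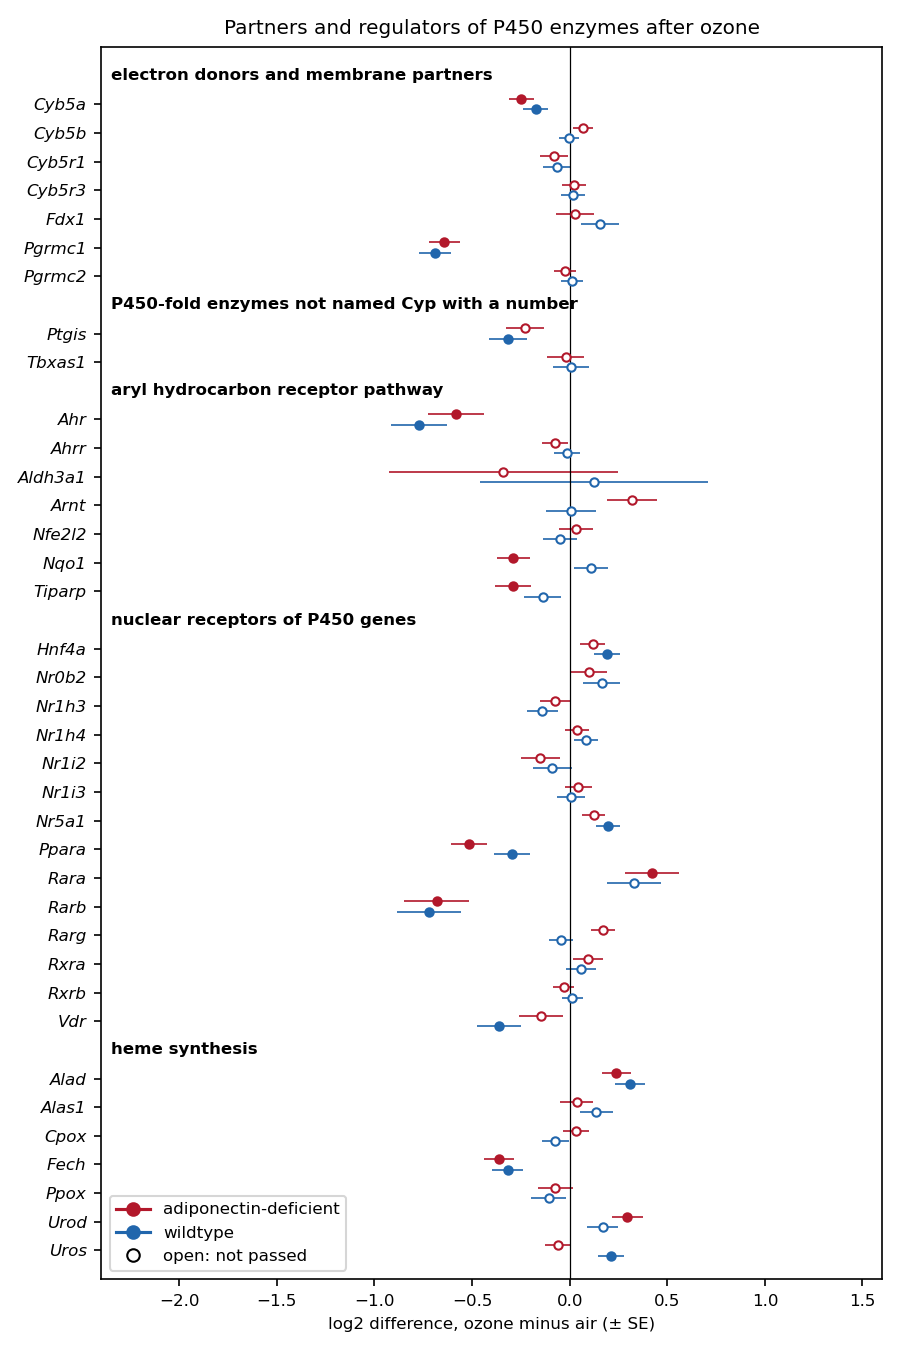
Log2 difference, ozone minus air, with its SE (horizontal axis) for genes of 5 groups around P450 enzymes (vertical axis), red for adiponectin-deficient and blue for wildtype mice, with filled points called by limma. Cyb5a, Pgrmc1, Ahr, Ppara, Rarb and Fech are filled left of 0 in both genotypes, and Alad is filled right of 0 in both.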

How the data were processed

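Left-lung total RNA was hybridised to Affymetrix arrays, per the labels. The authors deposited intensities on a linear scale, 1 for each probe set on each array, from 11.1 to 26974.7. They had been made with RMA (background correction, normalization between arrays and summarising of probes), per the submitters' processing notes, with no software named. Log2 was taken here, since the design had foreseen log2 values. After such normalization a change of all RNA together is not visible, and no detection calls were used.

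Of 22690 probe sets, 64 were controls and stayed out. A single gene symbol was given for 20380 by the platform annotation, which can be old, several for 691 and none for 1555. Each of 12393 genes was tested on the probe set brightest on average over the 16 arrays. The 62 P450 genes had 75 probe sets, with more than 1 for 11 genes, and 4 probe sets naming several P450 genes were not used. For 7 genes the tested probe set was of a kind shared between transcripts. All 62 genes matched RefSeq by gene ID.

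Log2 values were fitted with limma 3.58.1 under R 4.3.3, using lmFit followed by eBayes, with terms for the 4 groups and for sex. A fit with 1 group for each sex, genotype and exposure gave ozone by sex. The code was tested on simulated data. P-values measure the spread between mice. Named were the P450 genes called in any comparison, the well-expressed ones, those nearest the dividing level, and called genes of the partner and regulator lists. Members and lists were chosen with earlier results of these data known. Alternatives changed the normalization, the filter, the probe set, the variance prior, array weights, the sex term, the arrays and the threshold. Promoter windows and gene neighbourhoods came from RefSeq tables (GRCm38.p6). Figures used Python 3.11.15, pandas 2.3.3 and matplotlib 3.10.9.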

Additional observations from a re-analysis of the deposited data

Results flagged for a closer look

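In 3 of the 76 groups of 4 arrays formed by 19 named P450 genes, 1 array lay farther from the other 3 than Dixon's 95% limit allows, where chance flags about 1 group in 20. Cyp1a1 was 9.67 on WT air M2, against 10.41 to 10.52 on the other WT air arrays. Cyp2b10 was 11.52 on WT air F1, one of the arrays with fat cell markers, against 11.84 to 11.89 on the others of its group. Cyp7b1 was 6.96 on WT ozone F2, against 7.38 to 7.45 on the other WT ozone arrays.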

How the results depend on the processing

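The number of P450 genes called after ozone lay between 8 and 12 in KO mice and between 10 and 14 in WT mice when each array was left out in turn, against 11 and 14 with all arrays. The same fits gave 0 to 1 called for genotype after ozone, 0 to 2 for sex, 0 to 1 for ozone by sex, and 0 for genotype in air and for the interaction. At an adjusted p under 0.01, 6 were called in WT mice and 0 for sex. With 8 arrays of 1 sex, 6 were called in each genotype in males and 6 in each in females, fits with fewer samples chosen after seeing the data. Genotype after ozone gave 1 call (Cyp7b1) with the mean of all probe sets, and sex gave 2 (Cyp39a1 and Cyp2s1) with array weights. In WT mice the split was 3 higher and 9 lower with another quantile normalization and 10 higher and 7 lower with arrays set to a common median, against 6 and 8.

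With the replicate block, 10 were called in KO mice, 14 in WT mice and 0 for sex. The block called Cyp1a1 in WT mice (adjusted p = 0.0409), and it did not call Cyp2e1 in WT mice (0.0604), Cyp4b1 in KO mice (0.0505) or Cyp39a1 between the sexes (0.0551). Same-numbered mice did not deviate together (12 correlations from -0.148 to 0.130), so the numbers were not taken as pairs.

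Differences that changed sign were those of Cyp2f2 in WT mice (0.0160 with a common median, 0.0257 without WT air F2, 0.0149 in males alone, -0.0480 at the lowest with an array left out), of Cyp2c54 in KO mice (-0.0333 without the 3 air arrays and KO ozone F2), and of Cyp2c70 in KO mice (-0.00295 without the same arrays, -0.0170 in males alone). None of these was called in that genotype, and the cause was not tested. Over the alternatives tried, values were counted for the P450 genes called after ozone, in each genotype, and for Cyp39a1 between the sexes. Of these values, 945 kept their direction and side of the threshold, 132 no longer passed, 13 newly passed and 6 changed sign. Dim genes near the level of absent transcripts limit what can be seen, 11 P450 genes averaging no more than 4.46.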
